A study of Mus musculus with 12 samples.

Results

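The D cyclins, the kinases they activate, and the inhibitors of those kinases were followed as a set of 10 genes, taken by name from the 47643 genes of an RNA-seq table of mouse common lymphoid progenitors (CLPs). The set comprised the cyclins *Ccnd1*, *Ccnd2*, and *Ccnd3*, the kinases *Cdk4* and *Cdk6*, the Cip/Kip inhibitors *Cdkn1a* and *Cdkn1b*, the INK4 inhibitors *Cdkn2c* and *Cdkn2d*, and the retinoblastoma gene *Rb1*. All 10 were expressed well above the minimum used for testing, a mean TPM of 1 over the libraries, TPM being a transcript abundance corrected for gene length and scaled to an equal total in each library. The study asked how the noncoding RNA *Firre* acts in hematopoietic cells, and whether *Firre* made from a transgene alters what its deletion altered.

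CLPs were sorted by flow cytometry from bone marrow as lineage negative, IL7Rα positive cells with low Sca1 and low c-Kit, and each of the 12 libraries came from 1 adult male mouse. The 4 WT mice carried the intact *Firre* locus. The 4 ∆*Firre* mice lacked the locus together with its promoter, a germline deletion made with a Cre driver active in all tissues and backcrossed to C57BL/6J. The 4 *Firre* rescue mice carried the same deletion, a *Firre* cDNA transgene under a tetracycline responsive element, and the CAG-rtTA3 driver, and were fed doxycycline. The rtTA3 driver came from a B6N.FVB(Cg) line bred to C57BL/6J, so the strain background of this group may differ. The transgene is driven by a ubiquitous promoter system at another site in the genome, so it does not restore the native regulation of *Firre*. Doxycycline and rtTA3 are named for this group alone, and its library numbers form a run of their own, so transgenic *Firre*, doxycycline, rtTA3 with its strain background, and library number cannot be told apart as the source of a difference.

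D cyclins are the cyclins that mitogen and cytokine signals induce. They bind CDK4 or CDK6, and the active kinase phosphorylates the RB1 protein, which then releases E2F factors to switch on genes for DNA synthesis. INK4 proteins bind the kinases themselves and keep the cyclins out, whereas Cip/Kip proteins bind the assembled complexes and restrain CDK2 as well. In lymphoid precursors, cyclin D3 is known for the expansion of early B and T lineage cells, while cyclin D2 is known from hematopoietic progenitors and mature B cells.

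*Firre* separated the groups as labelled. Its level was 26.4, 31.6, 25.2, and 30.2 TPM in the WT libraries, 0 in each ∆*Firre* library, and 59.9, 135, 63.0, and 174 TPM in the *Firre* rescue libraries. Recovered reads numbered 10900924 to 18009467 in WT, 14232444 to 17413468 in ∆*Firre*, and 25531670 to 32302565 in *Firre* rescue libraries, so the last group was sequenced more deeply. Every library held the receptors that define the sort, with *Il7r* at 353 to 525 TPM, and *Dntt*, the polymerase of antigen receptor joining, at 4315 TPM or more. *Kit*, the receptor gated as low, stood at 61.9 to 82.9 TPM in WT, 68.6 to 80.9 in ∆*Firre*, and 48.2 to 62.3 with *Firre* rescue, and was lower in the last group than in ∆*Firre* (log2 difference −0.49, adjusted p = 0.0137) and WT (−0.40, adjusted p = 0.0373). The call against WT was lost after median ratio or quantile rescaling, by limma-voom, and after GC correction by bins (−0.17 to −0.26, adjusted p = 0.135 to 0.362). Differences were fitted with limma over 14479 genes, and a gene counted as called where its adjusted p did not exceed 0.1. Such calls were made for 0.0207% of the genes between ∆*Firre* and WT, for 27.9% between *Firre* rescue and ∆*Firre*, and for 24.3% between *Firre* rescue and WT. In the 2 comparisons with *Firre* rescue, the percentage of calls in the higher direction depended on scaling. It was 30.7% against ∆*Firre* and 19.9% against WT in the values as deposited, where the median of all genes was −0.16 and −0.21 on the log2 scale, and 50.5% and 51.2% after rescaling by the median ratio between libraries. Across genes, the difference from ∆*Firre* followed exon GC content (Spearman rho 0.45 over 13087 genes, which are not independent replicates), as did the difference from WT (rho 0.32), and the difference between ∆*Firre* and WT ran against it (rho −0.36).

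Of the 10 genes, 7 had a promoter entry in the RefSeq table of GRCm38.p6, the build the reads were mapped to, with 10 windows in all that run from 250 bases before to 50 bases after an annotated start. Windows of 4 genes are shown, *Ccnd3* and *Cdkn2d* because both rose in *Firre* rescue CLPs, *Cdkn1b* because it fell, and *Cdk4* because it is the kinase gene whose level passed no test. The windows, for *Ccnd3* the one of 2 that lies at the start of the gene, are at chr17:47504801-47505100 on the plus strand for *Ccnd3*, chr9:21291160-21291459 on the minus strand for *Cdkn2d*, chr6:134920151-134920450 on the plus strand for *Cdkn1b*, and chr10:127063285-127063584 on the plus strand for *Cdk4*. Capitals mark CACGTG, the hexamer bound by Myc with Max.
Ccnd3: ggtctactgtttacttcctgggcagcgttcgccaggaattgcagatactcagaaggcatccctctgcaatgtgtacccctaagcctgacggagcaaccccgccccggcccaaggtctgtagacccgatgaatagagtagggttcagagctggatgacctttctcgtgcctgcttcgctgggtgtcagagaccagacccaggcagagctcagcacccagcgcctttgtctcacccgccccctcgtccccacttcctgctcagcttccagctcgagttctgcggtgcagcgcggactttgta
Cdkn2d: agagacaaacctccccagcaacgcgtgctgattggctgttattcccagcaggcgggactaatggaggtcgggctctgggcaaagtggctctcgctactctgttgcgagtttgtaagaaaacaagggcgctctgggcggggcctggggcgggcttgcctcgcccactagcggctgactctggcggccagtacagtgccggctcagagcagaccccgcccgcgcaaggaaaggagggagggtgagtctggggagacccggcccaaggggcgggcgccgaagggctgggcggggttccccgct
Cdkn1b: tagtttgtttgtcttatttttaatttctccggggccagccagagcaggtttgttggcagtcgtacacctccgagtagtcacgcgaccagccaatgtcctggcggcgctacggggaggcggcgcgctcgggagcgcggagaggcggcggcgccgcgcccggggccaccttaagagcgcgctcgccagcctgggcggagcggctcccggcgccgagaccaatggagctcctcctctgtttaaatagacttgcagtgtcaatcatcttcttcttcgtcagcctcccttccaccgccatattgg
Cdk4: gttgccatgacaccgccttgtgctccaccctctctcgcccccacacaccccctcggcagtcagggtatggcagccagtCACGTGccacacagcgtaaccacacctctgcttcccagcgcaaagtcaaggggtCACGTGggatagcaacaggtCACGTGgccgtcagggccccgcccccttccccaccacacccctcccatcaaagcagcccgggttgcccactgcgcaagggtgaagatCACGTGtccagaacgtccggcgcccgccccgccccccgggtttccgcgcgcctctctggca
The *Cdk4* window held CACGTG 4 times, at positions 79, 133, 153, and 240 counted from 1 at its 5′ end. Of the member windows not shown, that of *Cdk6* held it once, at position 31, and 1 of 2 of *Cdkn2c* once, at position 285. The hexamer occurred at least once in 7.15% of the 32851 windows of this length in the table and at least 4 times in 0.0244% of them. *Myc* itself, which encodes the factor that binds it, stood at 302 ± 31.1 TPM in WT, 254 ± 49.2 in ∆*Firre*, and 274 ± 64.1 with *Firre* rescue (mean ± SD, n = 4 each), and passed no test. The other 3 windows shown held neither CACGTG, nor CAGGTG, the hexamer favored by E proteins (20.2% of all windows), nor the E2F motif TTTNNCGC (5.17%), all searched on both strands. Among the member windows not shown, a *Cdkn1a* window held CAGGTG and the *Cdk6* window held TTTNNCGC. These matches describe the letters in a window and are no evidence of binding, and an absent match says only that the letters are not in it. The windows shown were 59.3% to 67.0% G or C, against a median of 52.7% in the table.

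The D cyclins went in opposite directions in *Firre* rescue CLPs. *Ccnd3* was higher than in ∆*Firre* and WT, whereas *Ccnd1* and *Ccnd2* were lower than in both, and none of these 6 differences had overlapping libraries. Against ∆*Firre*, libraries did not overlap for 6.31% of all genes in the higher direction and 15.6% in the lower. Against WT these shares were 3.55% and 14.5%. Between ∆*Firre* and WT, none of the 10 genes passed the test. In libraries of many cells, a change in RNA per cell and a change in the mix of cells cannot be told apart, which holds for each difference given here.

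*Ccnd3* (ENSMUSG00000034165.16, chr17:47505051-47599689 in GRCm38) encodes cyclin D3. It stood at 81.0, 70.8, 71.9, and 74.9 TPM in WT mice 6, 8, 10, and 11, at 56.6, 49.2, 58.5, and 56.9 TPM in ∆*Firre* mice 8, 9, 11, and 12, and at 85.8, 104, 115, and 142 TPM in *Firre* rescue mice 1 to 4, the order in which values are given throughout. The 3 groups did not overlap, with every ∆*Firre* value under every WT value and every *Firre* rescue value above both. The *Firre* rescue mice were also the most spread, from 85.8 TPM, near the highest WT library, to 142 TPM. The level was 1.97-fold that of ∆*Firre* in *Firre* rescue CLPs (log2 difference 0.98 ± 0.13 SE, adjusted p = 0.000585) and 1.47-fold that of WT (0.55 ± 0.13 SE, adjusted p = 0.0149). Between ∆*Firre* and WT the difference was −0.43 ± 0.13 on the same scale, with an unadjusted p of 0.00655 by limma that became 0.889 after adjustment. Libraries that do not overlap in the lower direction were found for 4.49% of all genes in that comparison. The ∆*Firre* difference had the same sign within both runs of library numbers, −0.33 in one and −0.52 in the other, each with 2 mice a group. *Ccnd3* exons are 59.6% G or C, above the median of 49.5% over the genes tested, and correction for GC content lowered its 2 rises to 0.46 and 0.23, of which the second was no longer called (adjusted p = 0.198), although it was kept after correction by bins (0.37). The bins brought the difference between ∆*Firre* and WT to −0.12.

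*Ccnd1* (ENSMUSG00000070348.5, chr7:144929931-144939831) encodes cyclin D1 and was the least abundant of the 3 cyclins. Its level was 43.2, 28.9, 33.3, and 28.7 TPM in WT, 29.9, 32.5, 29.3, and 23.4 in ∆*Firre*, and 13.5, 13.8, 22.3, and 20.8 with *Firre* rescue, resting on 479 to 1112 reads a library. All *Firre* rescue libraries lay below all others, and mice 1 and 2 lay below mice 3 and 4. *Ccnd1* fell by 0.70 ± 0.19 (SE) on the log2 scale from ∆*Firre* to *Firre* rescue (adjusted p = 0.0248) and by 0.91 ± 0.19 from WT (adjusted p = 0.00883). Both calls were kept in every setting run, including the corrections for GC content.

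*Ccnd2* (ENSMUSG00000000184.12, chr6:127125162-127152188) encodes cyclin D2 and held the largest share of summed D cyclin TPM in all 12 libraries. It stood at 202, 241, 229, and 188 TPM in WT, at 183, 160.2, 210.0, and 209 in ∆*Firre*, and at 146, 117, 152, and 148 with *Firre* rescue. WT and ∆*Firre* overlapped widely, and every *Firre* rescue library lay under them. The level in *Firre* rescue CLPs was 0.74-fold that of ∆*Firre* (log2 difference −0.43 ± 0.12 SE, adjusted p = 0.0238) and 0.656-fold that of WT (−0.61 ± 0.12 SE, adjusted p = 0.00551). The first of these calls was lost when values were corrected for GC content by splines (−0.33, adjusted p = 0.117) or bins (−0.27, adjusted p = 0.101).

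**Figure D1:**
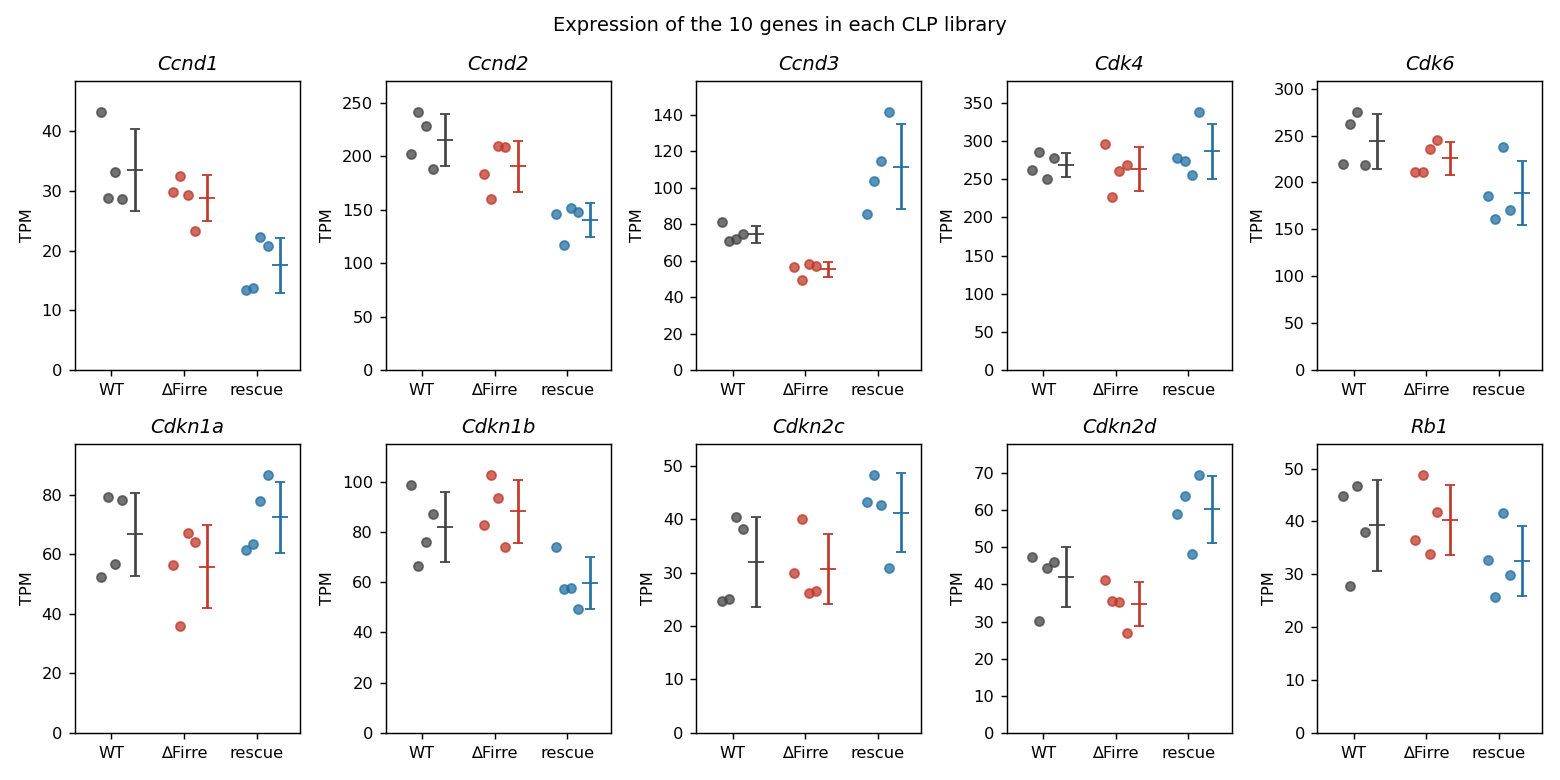
Level of each of the 10 genes in TPM (vertical axes, from 0) in WT, ∆*Firre*, and *Firre* rescue CLPs, 1 point per library, with the mean and SD of 4 libraries beside each group. *Ccnd3* and *Cdkn2d* have their 4 *Firre* rescue points above all others, and *Ccnd1* and *Ccnd2* have theirs below.

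The mix of D cyclin transcripts in *Firre* rescue CLPs stood apart from both other groups, while their sum overlapped. *Ccnd3* made up 20.7% to 25.7% of the summed D cyclin TPM in WT libraries, 19.6% to 21.0% in ∆*Firre*, and 35.0% to 45.6% in *Firre* rescue. *Ccnd2* made up 61.9% to 70.8%, 66.2% to 72.3%, and 47.8% to 59.5% in the same order. The ratio of *Ccnd2* TPM to *Ccnd3* TPM was thus 2.50 to 3.41 in WT, 3.24 to 3.68 in ∆*Firre*, and 1.05 to 1.70 with *Firre* rescue. In *Firre* rescue mouse 4 the pair was almost level in TPM. The ratio sets 2 genes of the same library against each other and so is untouched by rescaling of libraries, although not by GC content. The fitted difference of *Ccnd3* exceeded that of *Ccnd2* by 1.41 on the log2 scale from ∆*Firre* to *Firre* rescue and by 1.16 from WT, and by 0.80 in both after GC correction by splines and 0.75 and 0.77 by bins. The sum of all 3 was 323 ± 22.0 TPM in WT, 275 ± 24.8 in ∆*Firre*, and 270 ± 36.0 with *Firre* rescue (mean ± SD, n = 4). Sums in *Firre* rescue libraries ran from 235 to 311 TPM and overlapped both other groups.

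**Figure D2:**
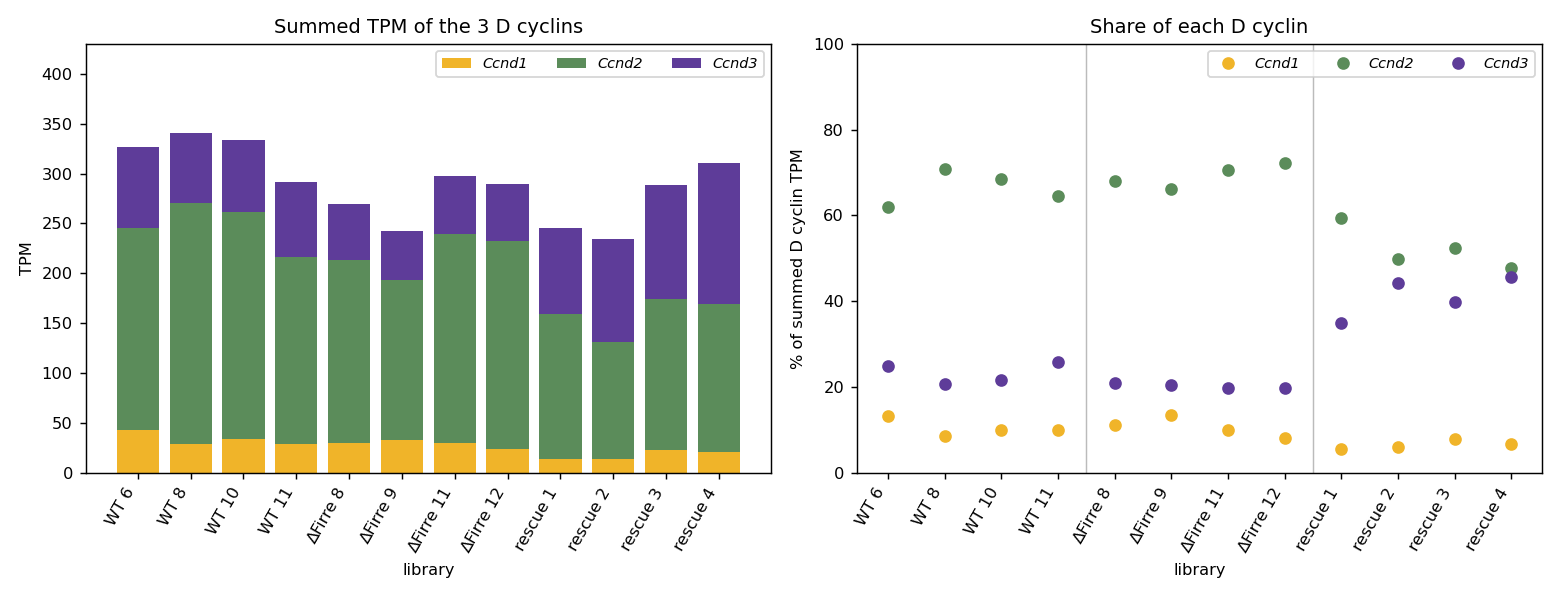
Left, summed TPM of *Ccnd1*, *Ccnd2*, and *Ccnd3* in each library (stacked bars from 0). Right, the share of each in that sum in percent, with grey lines between the groups; *Ccnd3* reaches 35.0% to 45.6% in *Firre* rescue libraries and at most 25.7% elsewhere.

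Of the kinase genes, *Cdk6* was called in 1 comparison and *Cdk4* in none. *Cdk4* (ENSMUSG00000006728.12, chr10:127063535-127067288), the gene of the promoter with 4 CACGTG hexamers, stood at 262, 285, 250.2, and 277 TPM in WT, at 296, 226, 260.5, and 268 in ∆*Firre*, and at 278, 273, 256, and 338 with *Firre* rescue. The 3 groups overlapped. Its log2 difference was −0.037 from WT to ∆*Firre* (95% confidence interval −0.26 to 0.18), 0.12 from ∆*Firre* to *Firre* rescue (−0.10 to 0.34), and 0.084 from WT to *Firre* rescue (−0.14 to 0.30). At the widest, the intervals reach 0.34 on the log2 scale.

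*Cdk6* (ENSMUSG00000040274.11, chr5:3341004-3531008), the second kinase that D cyclins activate, stood at 219.6, 263, 275, and 219 TPM in WT, at 212, 211, 235, and 245 in ∆*Firre*, and at 186, 161, 238, and 171 with *Firre* rescue. Among *Firre* rescue libraries, mouse 3 reached the range of the other groups and the other 3 lay below it. The level was 0.77-fold that of WT (log2 difference −0.38 ± 0.12 SE, adjusted p = 0.0549), a call that was lost under 8 of 13 other settings and on leaving out WT 8 (adjusted p = 0.122), WT 10 (0.143), *Firre* rescue 2 (0.131), or *Firre* rescue 4 (0.128). Against ∆*Firre* the difference was −0.27 (95% confidence interval −0.54 to −0.0023, adjusted p = 0.145), and it was called only without *Firre* rescue mouse 3 (−0.39, adjusted p = 0.0219). *Cdk4* and *Cdk6* together reached 513 ± 29.7, 488 ± 35.1, and 475 ± 32.9 TPM in WT, ∆*Firre*, and *Firre* rescue CLPs, with *Cdk4* giving 47.6% to 66.4% of the sum over all libraries.

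Both INK4 genes had their highest means in *Firre* rescue CLPs, and 1 of them passed the test. *Cdkn2d* (ENSMUSG00000096472.1, chr9:21288459-21291421), a gene the reference table did not pair with its identifier and the study's supplementary tables did, stood at 47.5, 30.2, 44.5, and 46.0 TPM in WT, at 41.3, 35.5, 35.2, and 26.97 in ∆*Firre*, and at 59.1, 63.9, 48.3, and 69.6 with *Firre* rescue. All *Firre* rescue libraries exceeded all others, though mouse 3 at 48.3 TPM lay just above the highest WT library. Reads were fewest for this gene, 135 to 905 a library. *Cdkn2d* rose 1.72-fold over ∆*Firre* (log2 difference 0.78 ± 0.17 SE, adjusted p = 0.00923) and 1.43-fold over WT (0.52 ± 0.17 SE, adjusted p = 0.0579). The rise over WT was no longer called without WT 8 (0.37, adjusted p = 0.135), *Firre* rescue 2 (0.49, adjusted p = 0.116), or *Firre* rescue 4 (0.44, adjusted p = 0.139) or after GC correction by splines (0.36, adjusted p = 0.224) or bins (0.52, adjusted p = 0.139), and it lost its call in 5 of 13 other settings in all. The rise over ∆*Firre* lost its call after GC correction by splines (0.52, adjusted p = 0.103) and kept it after correction by bins.

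*Cdkn2c* (ENSMUSG00000028551.14, chr4:109660876-109666756) encodes the other INK4 inhibitor measured here. Its level was 24.6, 24.98, 40.4, and 38.1 TPM in WT, 29.9, 40.1, 26.1, and 26.5 in ∆*Firre*, and 43.1, 48.3, 42.6, and 30.8 with *Firre* rescue. Of the *Firre* rescue libraries, 3 lay above all others and mouse 4 lay within their range. The log2 difference was 0.42 from ∆*Firre* (95% confidence interval −0.02 to 0.86, adjusted p = 0.169) and 0.37 from WT (−0.07 to 0.81, adjusted p = 0.234). GC correction brought these to 0.056 and 0.15 by splines and to 0.19 and 0.35 by bins. *Cdkn2c* and *Cdkn2d* summed to 55.2 to 84.8 TPM in WT, 53.4 to 75.6 in ∆*Firre*, and 90.9 to 112 TPM in *Firre* rescue libraries, so the sum did not overlap in the values as deposited, which are not corrected for GC content. Of the further INK4 genes, *Cdkn2a* was listed at 0 in every library and *Cdkn2b* in all but 1.

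Of the Cip/Kip inhibitors, *Cdkn1b* fell and *Cdkn1a* passed no test in the values as deposited. *Cdkn1b* (ENSMUSG00000003031.14, chr6:134920401-134925525), whose protein holds CDK2 complexes inactive in resting cells, stood at 98.6, 66.5, 75.8, and 87.2 TPM in WT, at 82.8, 103, 93.4, and 73.8 in ∆*Firre*, and at 74.1, 57.1, 57.6, and 49.5 with *Firre* rescue. *Firre* rescue mice 2 to 4 lay under every other library, and mouse 1 lay among the lower WT values and just above the lowest ∆*Firre* value. *Cdkn1b* fell by 0.56 ± 0.15 (SE) on the log2 scale from ∆*Firre* (adjusted p = 0.0233) and by 0.45 ± 0.15 from WT (adjusted p = 0.0598). Neither difference was called after GC correction by splines (−0.33, adjusted p = 0.18, and −0.30, adjusted p = 0.201) or by bins (−0.24, adjusted p = 0.336, and −0.14, adjusted p = 0.612). The fall from WT lost its call in 8 of 13 other settings, and without WT 6 (adjusted p = 0.152), WT 11 (0.133), *Firre* rescue 2 (0.11), or *Firre* rescue 4 (0.147).

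*Cdkn1a* (ENSMUSG00000023067.13, chr17:29090979-29100722), a target of p53 that halts the cycle after DNA damage, stood at 52.4, 79.3, 56.8, and 78.1 TPM in WT, at 56.3, 35.9, 67.2, and 64.0 in ∆*Firre*, and at 61.5, 63.4, 77.8, and 86.7 with *Firre* rescue. All groups overlapped, and the spread within WT was as wide as the distance between groups. The log2 difference from ∆*Firre* to *Firre* rescue was 0.39 (95% confidence interval −0.05 to 0.83, adjusted p = 0.197), and it was called after median ratio rescaling (0.51, adjusted p = 0.0798). *Cdkn1a* and *Cdkn1b* together came to 149 ± 13.6 TPM in WT, 144 ± 11.02 in ∆*Firre*, and 132 ± 7.67 with *Firre* rescue. This sum was lower, by a narrow margin, in every *Firre* rescue library (at most 136.2 TPM) than in every ∆*Firre* library (at least 137.8 TPM) and overlapped WT. Neither this sum nor that of all 4 inhibitors was tested or corrected for GC content. The 4 inhibitors summed to 223 ± 20.2, 209 ± 13.0, and 233 ± 5.19 TPM, where *Firre* rescue (226 to 238 TPM) lay above ∆*Firre* (191 to 222 TPM) and overlapped WT. D cyclin TPM per inhibitor TPM was 1.47 ± 0.22, 1.32 ± 0.16, and 1.16 ± 0.16, and its libraries overlapped in all 3 groups.

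*Rb1* (ENSMUSG00000022105.6, chr14:73192858-73325951), the substrate of the kinases, stood at 44.7, 27.7, 46.7, and 38.0 TPM in WT, at 36.6, 48.8, 33.9, and 41.8 in ∆*Firre*, and at 32.8, 25.8, 41.5, and 30.0 with *Firre* rescue. The groups overlapped throughout. The log2 difference was 0.049 from WT to ∆*Firre* (95% confidence interval −0.36 to 0.45), −0.31 from ∆*Firre* to *Firre* rescue (−0.71 to 0.10), and −0.26 from WT to *Firre* rescue (−0.67 to 0.15), and none was called. The last 2 became 0.050 and 0.089 after GC correction by bins, so no direction is given for *Rb1*.

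Counted together, 0 of the 10 genes were called between ∆*Firre* and WT, where 0.0207% of all genes tested were, and 1 of 10 had an unadjusted limma p under 0.05, where 5.3% of all genes did. By limma-voom on recovered reads 0 of the 10 were called as well. Between *Firre* rescue and ∆*Firre*, 5 of 10 were called (27.9% of all genes), 2 higher (8.58%) and 3 lower (19.3%). Against WT, 6 of 10 were called (24.3% of all genes), 2 higher (4.82%) and 4 lower (19.4%). After median ratio rescaling the calls were 3 higher and 3 lower against ∆*Firre*, where 13.1% and 12.9% of all genes were called after the same rescaling, and 2 higher and 2 lower against WT (9.02% and 8.59%). Libraries did not overlap for 4 of 10 genes against ∆*Firre* (21.9% of all genes), 2 higher (6.31%) and 2 lower (15.6%), and for 4 of 10 against WT (18%), 2 higher (3.55%) and 2 lower (14.5%). The median log2 difference of the 10 genes was −0.14, −0.07, and −0.09 in the 3 comparisons, beside −0.06, −0.16, and −0.21 over all genes. The 2 comparisons with *Firre* rescue share those 4 libraries and are not independent of each other, and each also shares 4 libraries with the comparison of ∆*Firre* and WT.

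**Figure D3:**
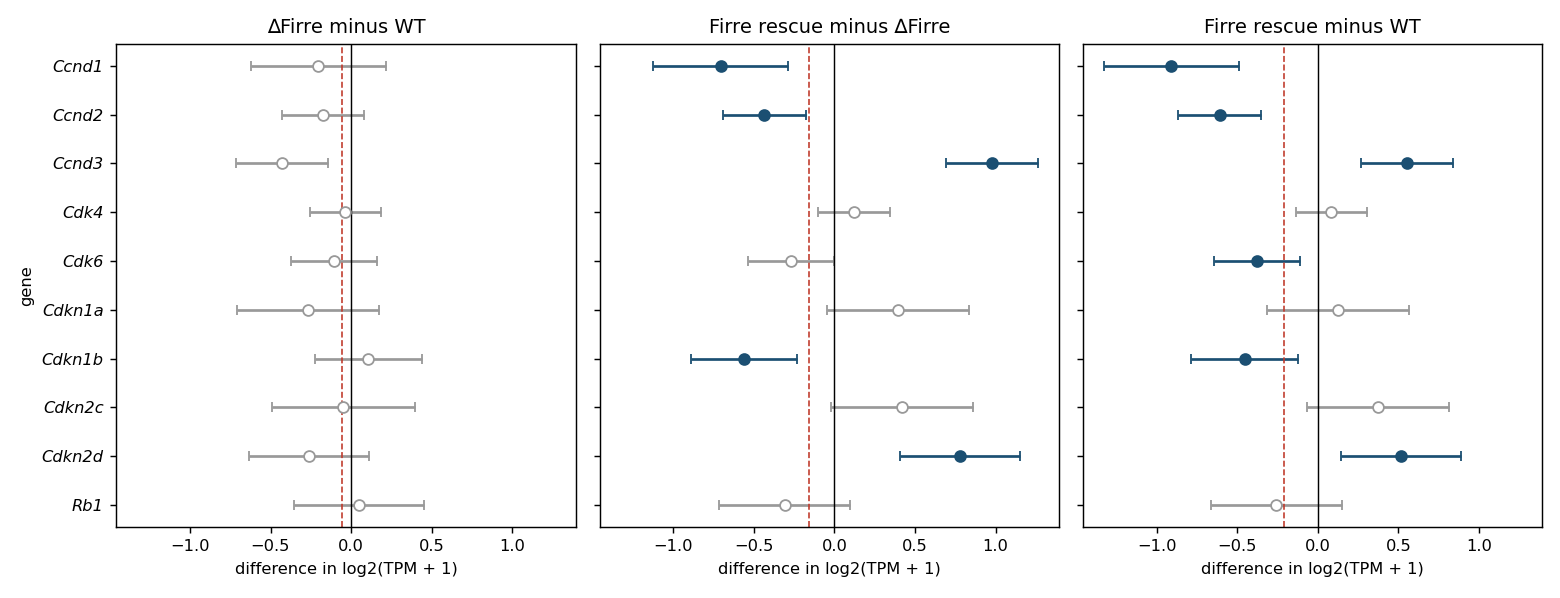
Difference in log2(TPM + 1) of the 10 genes in the 3 comparisons, with 95% confidence intervals from limma. Filled points passed the test at an adjusted p up to 0.1, open points did not, and the dashed line is the median of all genes tested; 0, 5, and 6 points are filled from left to right.

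The genes around the cyclins were counted in lists by role, beside 8.58% of all genes higher and 19.3% lower in *Firre* rescue than in ∆*Firre*, and 4.82% and 19.4% against WT. Among 12 partners and effectors (the RB1 relatives, E2F factors, and their DP partners), 0 were called between ∆*Firre* and WT by limma or limma-voom, and 0 had an unadjusted p under 0.05. Between *Firre* rescue and ∆*Firre*, 1 was higher and 3 were lower, with a median of −0.054. *E2f2*, an activator of S phase genes, stood at 22.4 to 31.97 TPM in WT, 21.4 to 25.5 in ∆*Firre*, and 34.9 to 65.5 with *Firre* rescue and rose in the last group over both others (log2 differences 0.999 and 0.83, adjusted p = 0.00271 and 0.00833). *Rbl2*, the RB1 relative of quiescent cells, stood at 66.1 to 88.4, 79.2 to 84.6, and 42.6 to 50.9 TPM in the same order and fell (−0.80 and −0.72, adjusted p = 0.000693 and 0.00153). Neither gene's *Firre* rescue libraries overlapped the others. Over all genes, libraries did not overlap in the higher direction for 6.31% against ∆*Firre* and 3.55% against WT, and in the lower for 15.6% and 14.5%. *E2f3* fell by 0.42 from ∆*Firre* and by 0.44 from WT with overlapping libraries, and lost its call against ∆*Firre* under both GC corrections and against WT after median ratio or quantile rescaling, by limma-voom, and after GC correction by bins.

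The next step of the cycle, cyclin E and cyclin A with CDK2 and the kinase that activates it, showed no call among 8 genes in any comparison by limma (0 with an unadjusted p under 0.05) or by limma-voom on recovered reads. *Cdk2* stood at 195 ± 9.69 TPM in WT, 193 ± 16.2 in ∆*Firre*, and 175 ± 7.60 with *Firre* rescue (mean ± SD, n = 4). After GC correction by bins 1 of the 8 was higher in each comparison with *Firre* rescue. Among 16 S phase genes that E2F factors are known to drive, 5 rose and 0 fell from ∆*Firre* to *Firre* rescue, with a median of 0.25 beside −0.16 over all genes, and against WT 2 were higher and 1 lower. The largest of these rises from ∆*Firre* were 0.58 for *Tk1*, 0.47 for *Mcm2*, and 0.46 for *Rrm2*, genes for thymidine salvage, replication licensing, and deoxynucleotide synthesis. The counts from ∆*Firre* were 5 to 8 higher and 0 lower over 4 rescaled or GC corrected settings, and 10 and 0 by limma-voom. Against WT they were 5 higher and 0 lower by median ratio, 3 and 1 by quantiles, 2 and 0 by GC splines, 4 and 0 by GC bins, and 6 and 0 by limma-voom. Over these 5 settings 5.43% to 13.8% of all genes were called higher than in ∆*Firre* and 3.95% to 9.02% higher than in WT.

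Genes known to act on transcription of the members were taken as 12 upstream regulators. From ∆*Firre* to *Firre* rescue 4 rose and 1 fell (8.58% and 19.3% of all genes), with a median of 0.085 beside −0.16 over all genes, and from WT 3 rose and 2 fell (4.82% and 19.4%), with a median of −0.12 beside −0.21. *Tcf3*, which encodes the E2A proteins of B lineage entry, stood at 93.1, 90.6, 82.7, and 73.1 TPM in WT, at 48.5, 46.7, 62.1, and 69.7 in ∆*Firre*, and at 141, 108, 146, and 166 with *Firre* rescue. The order of the groups was that of *Ccnd3*, without overlap between any pair, and the rise was 1.30 from ∆*Firre* (adjusted p = 0.000243) and 0.71 from WT (adjusted p = 0.00977). After GC correction the rise of *Tcf3* from WT was 0.33 by splines (adjusted p = 0.0743) and 0.53 by bins (adjusted p = 0.00587). *Lyl1*, a bHLH factor of progenitors, stood at 128 to 171, 81.2 to 118, and 134 to 225 TPM and rose from ∆*Firre* by 1.01 (adjusted p = 0.00208). Between ∆*Firre* and WT neither was called (*Tcf3* −0.59, *Lyl1* −0.63, both adjusted p = 0.889), although their libraries did not overlap, as for 4.49% of all genes in the lower direction. GC correction brought these 2 differences to −0.37 and −0.38 by splines and to −0.28 and −0.32 by bins. *Zbtb17*, which encodes the Myc partner that controls INK4 and Cip/Kip genes, rose by 0.84 from ∆*Firre*, and *Mycn* was lower than in WT by 0.89. After GC correction by splines 1 of the 12 rose and 2 fell from ∆*Firre*. *Tcf3* kept its call (0.70), whereas *Lyl1* (0.28, adjusted p = 0.206) and *Zbtb17* (0.38, adjusted p = 0.161) lost theirs. After correction by bins 4 rose and 2 fell, and these 3 genes were called. From WT, 5 of the 12 rose and 1 fell by median ratio (9.02% and 8.59% of all genes) or limma-voom (8.36% and 10.3%). With GC splines 2 rose and 4 fell from WT (3.95% and 14.6% of all genes).

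Of 9 genes that handle turnover or folding of these proteins, 3 rose and 2 fell from ∆*Firre* to *Firre* rescue (8.58% and 19.3% of all genes). From WT 0 rose and 2 fell (4.82% and 19.4%). By median ratio 3 rose and 2 fell from WT (9.02% and 8.59%), and by GC bins 3 rose and 1 fell (8.04% and 6.48%). *Cdc37*, the cochaperone that loads CDK4 onto HSP90, rose by 0.63 from ∆*Firre*. *Gsk3b*, a kinase that marks cyclin D1 for destruction, fell by 0.56 from ∆*Firre* and by 0.69 from WT. Among 14 targets of p53 tested, the family to which *Cdkn1a* belongs, 2 rose and 6 fell from ∆*Firre* (8.58% and 19.3% of all genes), with *Perp* at −1.51, *Phlda3* at 0.91, and *Bax* at 0.79, and the median was −0.36 beside −0.16 over all genes. By median ratio 2 of the 14 rose and 3 fell (13.1% and 12.9% of all genes), as by limma-voom (13% and 15.5%). After GC correction by splines 2 of the 14 were called, both lower (9.86% of all genes). By bins 1 was called, lower, where 7.62% of all genes were lower and 9.26% higher.

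For each D cyclin, genes among the 3 whose log2(TPM + 1) followed it most closely over the 12 libraries are given as a description, since the points share their group and depth. *Ccnd3* ran with *Rdbp* (Pearson r 0.96 over 12 libraries, 0.89 for deviations from the group means) and *Crip1* (0.96 and 0.71). *Ccnd1* ran with *Cln3* (0.96 and 0.87), *Pygl* (0.96 and 0.89), and *Cd274* (0.96 and 0.86). *Ccnd2* ran with *Gpc2* (0.96 and 0.87), *Ints7* (0.96 and 0.89), and *Naa15* (0.96 and 0.86). Among the members, *Ccnd2* went with *Cdk6* both over all libraries (0.87) and within groups (0.74), while *Ccnd3* and *Cdkn2d* went together over all libraries (0.80) and less closely within groups (0.22).

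Markers of other cells moved with the groups in which these genes differed. Beside their counts stand 8.58% of all genes higher and 19.3% lower in *Firre* rescue than in ∆*Firre*. Against WT these shares were 4.82% and 19.4%. The summed TPM of 8 basophil and mast cell markers was 9132, 1063, 1818, and 2801 in WT, 4328, 3243, 3008, and 2940 in ∆*Firre*, and 110.0, 142, 94.4, and 64.5 with *Firre* rescue, and all 8 were lower in *Firre* rescue than in both other groups. WT 6, the library with the highest sum, also had the highest *Ccnd1*, and without it the fall of *Ccnd1* from WT was 0.78 (adjusted p = 0.0268). Within the *Firre* rescue group, where no sum exceeded 142, the 2 libraries with the higher sums had the lower *Ccnd1*. Among ∆*Firre* libraries, mouse 12 had both the lowest sum and the lowest *Ccnd1* (23.4 TPM). The highest sum there was in mouse 8 and the highest *Ccnd1* in mouse 9. In WT 8, where the sum was lowest outside *Firre* rescue, *Ccnd1* was 28.9 TPM, above every *Firre* rescue library. The part of these cells in the fall of *Ccnd1* and of the other members was not tested.

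The 13 B and plasma cell markers split, with 7 higher and 5 lower in *Firre* rescue than in ∆*Firre*. *Vpreb1*, a surrogate light chain gene of early B lineage cells, stood at 28.7, 28.4, 46.2, and 59.97 TPM in WT, at 28.0, 40.3, 34.7, and 38.8 in ∆*Firre*, and at 192, 233, 147, and 257 with *Firre* rescue. *Ly6d*, which marks CLPs that have turned to the B lineage, stood at 457 to 586, 458 to 547, and 1065 to 1560 TPM. Both were higher where *Ccnd3* was higher, that is in *Firre* rescue libraries, but *Vpreb1* and *Ly6d* overlapped between WT and ∆*Firre*, where *Ccnd3* did not. *Igkc*, the most abundant gene of the list, went the other way, from 8709 to 14169 TPM in WT and 16161 to 32650 TPM in ∆*Firre* to 19.95 to 2392 in *Firre* rescue CLPs. The antibody cocktail that the methods list for lineage staining of bone marrow includes one against CD45R. The gate was thus meant to leave out B lineage cells that carry it, and how fully it did so was not measured here. The part of B lineage cells in the rise of *Ccnd3* and *Cdkn2d* was not tested.

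**Figure D4:**
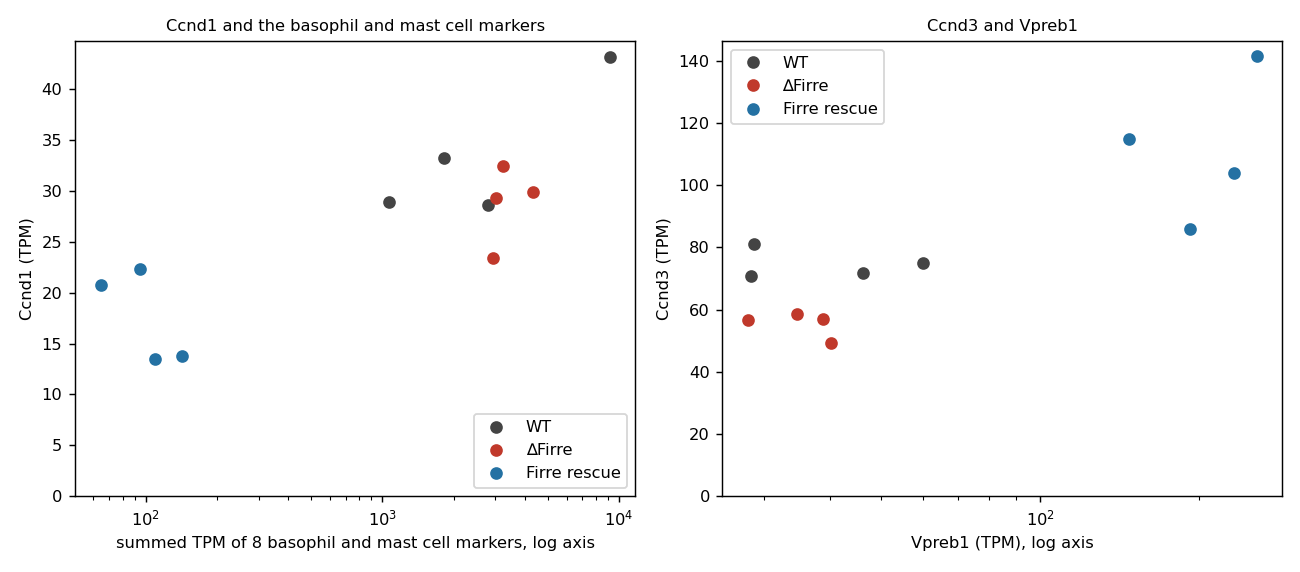
Left, *Ccnd1* in TPM against the summed TPM of 8 basophil and mast cell markers (log axis). Right, *Ccnd3* in TPM against *Vpreb1* in TPM (log axis). Each point is 1 library; *Firre* rescue libraries stand apart on both horizontal axes, at 64.5 to 142 and at 147 to 257 TPM.

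The summed TPM of 13 immediate early genes, which respond quickly to stress and stimulation, was 178 to 201 in WT, 106 to 242 in ∆*Firre*, and 679 to 964 with *Firre* rescue. Of the 11 tested, 9 rose and 1 fell from ∆*Firre*, with *Fos* at 3.91, *Jun* at 3.80, and *Fosb* at 3.58 on the log2 scale. *Ccnd1*, a known AP-1 target, was lower in the same libraries, and any effect of these genes on it was not tested. NK cell markers were lower as well, 5 of 7 from ∆*Firre* (19.3% of all genes), with summed levels of 346 to 712, 416 to 639, and 241 to 295 TPM in WT, ∆*Firre*, and *Firre* rescue. That count was 3 by median ratio, quantiles, or GC bins (12.9%, 12%, and 7.62% of all genes). It was 4 by GC splines (9.86%) and 5 by limma-voom (15.5%). Of the T cell markers 2 of 5 tested were lower from ∆*Firre*, and of those of type 2 innate lymphoid cells 4 of 4. Under both GC corrections these counts were 1 and 3. The same antibody cocktail includes one against CD3, so the gate was meant to leave out T cells that carry it as well. Of 7 erythroid and megakaryocyte markers, 0 were higher and 1 was lower than in ∆*Firre*, *Itga2b* by 3.87, and 1 was higher and 2 lower than in WT. Of 10 neutrophil and monocyte markers, 1 was lower in each comparison, *Mpo* by 0.56 and 0.62. Markers of plasmacytoid dendritic cells split, with 2 of 6 higher and 2 lower than in ∆*Firre*, and 0 higher and 1 lower than in WT. WT 6 and ∆*Firre* 8 nearly lacked *S100a8* of neutrophils (0.909 and 0.296 TPM), which the other libraries of those groups held at 145 to 340 TPM. In *Firre* rescue libraries it was at 439, 37.4, 0, and 62.6 TPM, although antibodies against Gr-1 and CD11b are in the cocktail too. The part of these differences in those of the 10 genes was not tested.

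**Figure D5:**
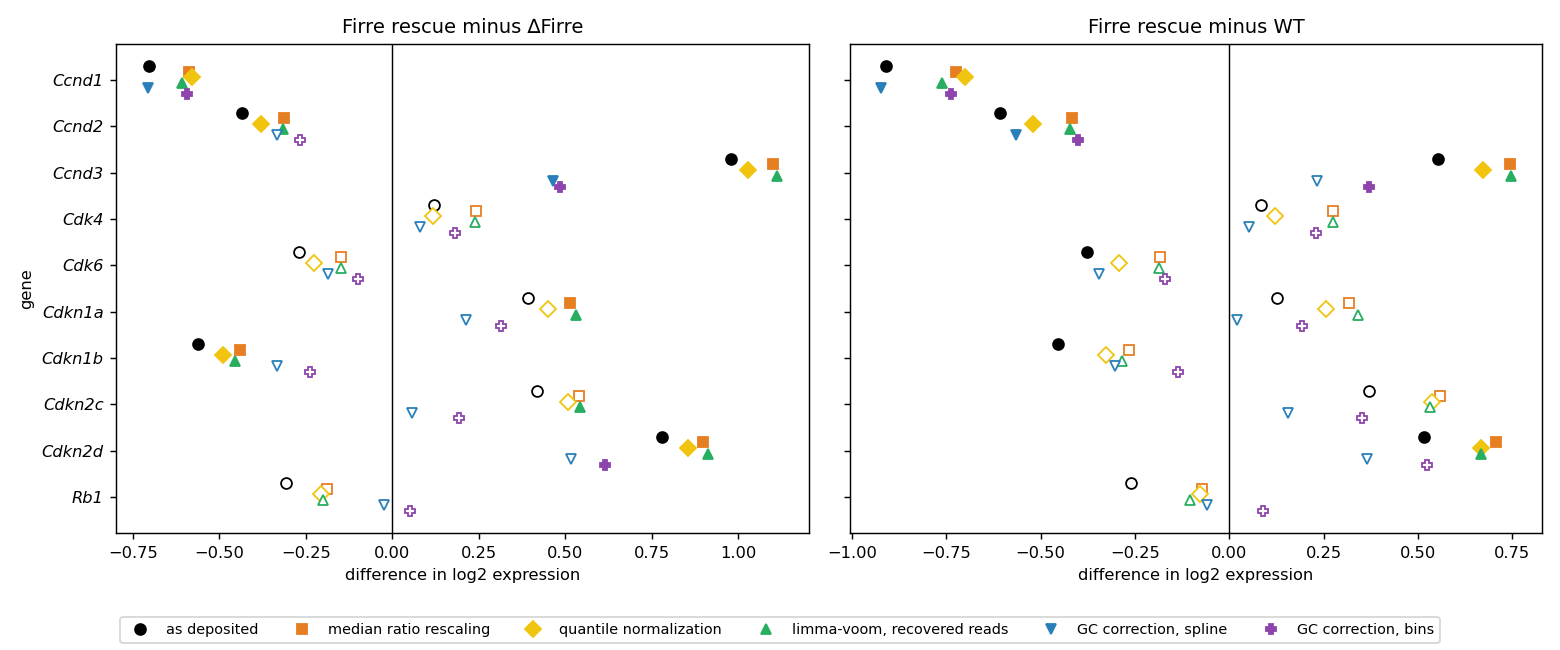
Log2 difference of the 10 genes between *Firre* rescue and ∆*Firre* (left) and WT (right) in the values as deposited and under 5 other treatments of the data. Filled symbols passed the test at an adjusted p up to 0.1; *Ccnd1* is filled under all 6 in both panels, *Ccnd3* in the left and *Ccnd2* in the right.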

How the data were processed

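RNA was sequenced from sorted CLPs of 12 mice. Per the labels and the study's methods, reads were trimmed with cutadapt, mapped to mm10 with TopHat2 2.1.1, and counted per Gencode gene with featureCounts, and the deposited values are TPM, made by the authors from counts divided by gene length and scaled to an equal total per library. Strand and multi-mapping settings are not given in the sources used here. Groups came from the sample labels. TPM were set to log2(TPM + 1), and 14479 genes, those whose TPM averaged 1 or more, were fitted with limma 3.58.1 (R 4.3.3, lmFit and eBayes with trend), the 3 groups in 1 fit, two-sided, with Benjamini-Hochberg adjustment over all genes and calls at 0.1 or less. The fit was tested on simulated data. Read numbers were recovered from the spacing of TPM values (14478 of 14479 genes tested, whole to within 0.02 read). They cover counting error only. P-values set a difference between groups against the spread between mice within groups, pooled over the 3 groups. A difference that comes with the separate library numbers of *Firre* rescue is not covered by them.

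Exon GC content came from an older mouse annotation joined by gene identifier (90.4% of genes tested). Sums and promoter motifs were computed in Python 3.11.15 with pandas 2.3.3 and numpy 2.4.6. The members and gene lists were chosen with earlier results of these data known. All members are named, and of other lists at most the 3 called genes with the largest difference per comparison, and of markers those that define the sort (*Il7r*, *Kit*) or have the highest mean TPM of their list (*Dntt*, *Igkc*), while *Cdk2*, *Myc*, *Cdkn2a*, *Cdkn2b*, *Ly6d*, *Vpreb1*, and *S100a8* were named after their values were seen. Alternatives covered the pseudocount, filter, scaling, spread, threshold, GC content, blocks, limma-voom, and each library left out. For *Ccnd3*, 1 of the 3 genes most alike is not reported here. The authors' own differential expression results were not used.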

Additional observations from a re-analysis of the deposited data

Results flagged for a closer look

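Of 30 sets of 4 libraries (10 genes in 3 groups), 2 held a library that stood far from the other 3, where chance gives about 1 in 20 sets, or 1.5 here. *Ccnd2* was 117 TPM in *Firre* rescue mouse 2, against 146 to 152 TPM in the other *Firre* rescue mice. *Cdkn2d* was 30.2 TPM in WT mouse 8, against 44.5 to 47.5 TPM in the other WT mice.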

How the results depend on the processing

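Over 780 results of the 10 genes in other settings, 715 kept direction and call, 38 lost the call, 4 gained it, and 23 changed sign. Of the 780, 280 compared ∆*Firre* with WT, where no member was called and no call could be lost. The lost calls were 33 of 250 results against WT and 5 of 250 against ∆*Firre*, counts that include members not called to begin with. Those that changed sign were uncalled. *Ccnd1* in both comparisons with *Firre* rescue, *Ccnd3* against ∆*Firre*, and *Ccnd2* against WT were called in every setting run. Calls of members against ∆*Firre* fell from 5 to 2 with GC correction by splines and to 3 by bins, and ran from 5 to 6 with a library left out. They rose to 3 higher and 3 lower by median ratio and to 4 higher and 3 lower by limma-voom. Against WT they fell from 6 to 3 with no filter, only the groups compared, an adjusted p of 0.05, or GC bins, to 2 with GC splines, and ran from 3 to 6 with a library left out, with 3 without *Firre* rescue 2 or 4. Over all genes, calls against ∆*Firre* fell from 4043 to 2682 at an adjusted p of 0.05, 2001 with GC splines (3800 for the same genes uncorrected), and 2209 with bins, and ran from 2820 to 4460 with a library left out. Calls against WT fell from 3512 to 2263 with only the groups compared and 1900 with bins, and ran from 2670 to 4349. Between ∆*Firre* and WT, calls over all genes were 6 with no filter, 1 with only the groups compared, 0 with limma-voom (377 at an unadjusted p under 0.05), 1 with the library number range as a block, and 1 to 5 with a library left out (1 without ∆*Firre* 9 or 11, 5 without ∆*Firre* 12). GC bins were added after seeing the data. The cause was not tested.

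Mouse numbers 8 and 11 occur in WT and ∆*Firre*, but libraries with the same number did not deviate together (r −0.03 and −0.04). These 4 libraries are also a run of library numbers, and the block takes its difference from them alone. With this replicate block 0 genes were called, and 5 with GC correction added. Under the replicate block *Ccnd1* was 0.038 and *Cdkn2d* 0.031 between ∆*Firre* and WT, and 0.028 and 0.16 with GC correction added.

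Other changes of sign between ∆*Firre* and WT were *Cdk4* (0.033 by median ratio, 0.0030 by quantiles, 0.034 by limma-voom, 0.048 by GC bins), *Cdkn2c* (0.021 by median ratio, 0.029 by quantiles, 0.099 by GC splines, 0.16 by GC bins, 0.027 by replicate block with GC), and *Rb1* (−0.035 by GC splines). With a library left out, *Cdk4* ran from −0.097 to 0.032, *Cdkn2c* from −0.18 to 0.073, and *Rb1* from −0.11 to 0.14. *Rb1* became 0.050 and 0.089 with GC bins in the comparisons of *Firre* rescue with ∆*Firre* and WT. *Cdkn1a* was called against ∆*Firre* after median ratio rescaling and limma-voom, and *Cdkn2c* by limma-voom.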
